A study of Mus musculus with 28 samples.

Results

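Topoisomerases, the enzymes that cut and reseal DNA to release its twist, and the membrane pumps that carry doxorubicin out of the cell were followed in mouse embryonic fibroblasts (MEFs) exposed to doxorubicin (Doxo) or to H2O2. The 9 genes chosen were Top1, Top2a, Top2b, Top3a and Tdp1, and the transporter genes Abcb1a, Abcb1b, Abcc1 and Abcc5. Every probe set whose only gene symbol in the platform annotation was one of these names was taken, which gave 19 of 45037 probe sets for 8 of the 9 genes. Abcc5 had 7 of them, Top2a 3, Abcb1a, Abcb1b and Abcc1 2 each, and Top1, Top3a and Tdp1 1 each. Top2b is not analysed here.

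The 28 Affymetrix arrays fall into 8 groups of primary MEFs at passage 2, made from embryos of 13.5 days. Doxo at 0.25 μg/ml was given to p66-/- MEFs and to WT MEFs, with 2 arrays each. H2O2 at 400 μM was given to p53-/-, p66-/- and WT MEFs, and untreated MEFs of the same 3 genotypes served as controls, with 4 arrays in each of these 6 groups. The p53-/- cells lack the tumour suppressor p53, and the p66-/- cells lack p66, the longest protein of the Shc1 gene. The labels give 4 h for both exposures and name the strain C57Bl/6, whereas the methods of the study name sv129 mice. The titles call the replicates biological, and the study speaks of independent preparations of cells, with no embryo or litter given. Values are log2 signals after RMA, which corrects background, equalizes the arrays and summarizes the probes of a set, so that a difference of 1 is a 2-fold change. For genes with several probe sets the brightest one is the main one.

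Some facts of the whole series touch every value below. The 4 Doxo arrays stood apart from the others in the RNAs spiked into each sample: lys read 4.19 ± 0.16 (SD, n = 4) on them, 5.27 ± 0.28 on replicates 1 and 2 of the other groups and 3.59 ± 0.28 on replicates 3 and 4 (n = 12 each). For bioB the means were 8.03, 6.77 and 7.40 in the same order. No untreated array belongs to the set of the Doxo arrays, so that Doxo and its array set cannot be told apart. Replicates 1 and 2 and replicates 3 and 4 are called the first and the second array set here. Doxo moved the median of all probe sets by 0.15 against untreated cells and by 0.14 against H2O2. Of the probe sets below the median level 41.8% were higher and 4.33% lower after Doxo, and of those above it 38.5% were higher and 31.7% lower. All 8 fibroblast markers were measured, with means of 5.10 to 12.9. Markers of other cells summed to more signal on the Doxo arrays: 175 to 201 for 4 epithelial genes, against 104 to 149 after H2O2 and 108 to 171 untreated, and 61.2 to 65.4 for 3 endothelial genes, against 47.1 to 59.7 and 46.6 to 60.8 (linear units). For 4 blood genes the sums were 258 to 344 after Doxo, 93.4 to 330 after H2O2 and 104 to 282 untreated, and for 3 neural genes 206 to 322, 64.5 to 292 and 68.4 to 203. Their part in the results was not tested. On p53-/- arrays the stress genes Gadd45a, Atf3, Adm and Id1 went against the treatment labels. Gadd45a averaged 6.57 ± 0.27 where the label says H2O2 and 9.62 ± 0.32 where it says untreated (SD, n = 4 each), against 9.90 ± 0.36 and 6.69 ± 0.41 in WT cells. In the same order Atf3 averaged 5.98 and 8.88, against 8.64 and 5.79. Adm averaged 8.34 and 5.03, against 5.38 and 8.42, and Id1 9.31 and 5.73, against 6.69 and 9.26. Of the other stress genes listed, Mdm2, at 7.67 and 7.68 on p53-/- arrays, and Ccng1, at 8.51 and 8.27, overlapped between the labels. Cdkn1a averaged 6.64 and 7.65, the other way round than in WT cells, at 11.8 and 10.5. Mdm2, Ccng1 and Cdkn1a read lower on p53-/- than on WT arrays under either label, so that they cannot settle the labels. The p53-/- arrays are still named by their labels here, and a direction between them is open to exchange.

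Topoisomerase 1, made from Top1, nicks a single strand of DNA and lets it swivel ahead of polymerases. Topoisomerase 2α, made from Top2a, passes a duplex through a cut of both strands, and is abundant in dividing cells, where it separates sister chromatids. Doxorubicin, an anthracycline, holds type 2 topoisomerases on the DNA they have cut and so leaves breaks. Topoisomerase 3α, made from Top3a, unlinks single strands together with the helicase Blm, and Tdp1 removes topoisomerase 1 remnants from DNA ends. In the mouse, Abcb1a and Abcb1b together encode P-glycoprotein, which a single gene encodes in humans, and which pumps anthracyclines out of cells. Abcc1 and Abcc5 encode the multidrug resistance proteins MRP1 and MRP5, exporters of conjugates and of cyclic nucleotides.

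The promoters of the 3 genes that fell after Doxo and of the transporter gene that rose are shown because these genes moved in opposite directions. Each run holds the 250 bases before the transcript start from RefSeq (GRCm38.p6), read 5′ to 3′ on the strand of the gene, and 7 of the 9 genes had an entry. Capitals mark CCAAT, the motif bound by NF-Y, and GGGCGG, the GC box bound by Sp1, on either strand (ATTGG and CCGCCC on the other). The locations are chr11:99024190-99024439, minus strand, for Top2a, chr2:160645647-160645896, plus strand, for Top1, chr5:8797897-8798146, plus strand, for Abcb1b and chr16:20426395-20426644, minus strand, for Abcc5.
Top2a: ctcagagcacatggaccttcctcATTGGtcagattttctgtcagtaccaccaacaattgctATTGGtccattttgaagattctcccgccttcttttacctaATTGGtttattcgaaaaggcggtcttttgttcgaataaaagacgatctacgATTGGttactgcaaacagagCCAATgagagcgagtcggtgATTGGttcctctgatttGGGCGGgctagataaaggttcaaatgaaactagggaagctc
Top1: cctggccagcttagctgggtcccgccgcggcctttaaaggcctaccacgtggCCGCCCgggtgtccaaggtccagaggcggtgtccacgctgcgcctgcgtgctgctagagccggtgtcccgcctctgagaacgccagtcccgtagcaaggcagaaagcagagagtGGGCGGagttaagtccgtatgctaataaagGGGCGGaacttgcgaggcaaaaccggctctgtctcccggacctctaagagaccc
Abcb1b: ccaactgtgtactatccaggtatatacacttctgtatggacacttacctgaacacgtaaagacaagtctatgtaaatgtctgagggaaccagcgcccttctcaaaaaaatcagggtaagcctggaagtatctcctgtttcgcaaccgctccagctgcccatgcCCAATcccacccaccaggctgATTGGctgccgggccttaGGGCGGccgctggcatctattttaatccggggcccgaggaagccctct
Abcc5: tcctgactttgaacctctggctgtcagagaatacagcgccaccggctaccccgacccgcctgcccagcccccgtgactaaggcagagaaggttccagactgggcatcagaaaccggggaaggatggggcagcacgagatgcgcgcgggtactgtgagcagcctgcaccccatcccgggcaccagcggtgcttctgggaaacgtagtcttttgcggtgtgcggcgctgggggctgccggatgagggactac
The Top2a promoter held 6 CCAAT motifs, a number reached by 0.0578% of 32851 promoters of this length, and 1 GGGCGG. The Top1 promoter held 3 GGGCGG motifs, a number reached by 8.47% of promoters, and no CCAAT. The Abcb1b promoter held 2 CCAAT motifs, a number reached by 10.1% of promoters, and 1 GGGCGG. No match to either was found in the Abcc5 window, nor in that of Abcb1a. The window of Tdp1, which did not pass after Doxo, held 1 GGGCGG and no CCAAT. Top3a, which rose, and Abcc1 had no entry, so that the windows do not tell rising from falling genes. TGANTCA, the AP-1 site, was found in none of the 7 windows. CCAAT lay in 33.8%, GGGCGG in 32.7% and TGANTCA in 6.75% of all promoters.

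Against untreated cells of the same genotype, with WT and p66-/- averaged, Doxo changed 5 of the 8 genes at their main probe set. Top1, Top2a and Abcb1b fell, Top3a and Abcc5 rose, and Tdp1, Abcb1a and Abcc1 did not pass. A gene or probe set is called changed where the limma p-value, adjusted over all 45037 probe sets by Benjamini and Hochberg, is under 0.05. Such calls were common: 66.5% of all 17097 genes passed. Of the 19 probe sets 12 passed, 7 higher and 5 lower, against 58.1% of all probe sets (40.1% higher and 18% lower). After a further quantile normalization, for which no share of all probe sets is given here, 8 were higher and 3 lower. At the study's thresholds, an unadjusted p under 0.05 and 1.5-fold, 1 was higher and 4 lower. Lower calls also outnumbered higher ones over all probe sets at these thresholds, with the counts given further below. By the adjusted p of the main fit the share of members that passed is near that of the array as a whole. The median change over the 8 genes was -0.10, and over all genes 0.20.

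Against H2O2, Top1, Top2a and Abcb1b were lower and Top3a and Abcc5 higher after Doxo, and the other 3 genes did not pass. The comparison shares its 4 Doxo arrays with the one against untreated cells, so that it is no independent support for it. Here 10 of the 19 probe sets passed, 5 higher and 5 lower. Over all probe sets it was 57.7% (39.6% higher and 18.1% lower), and over all genes 66%. The median change of the 8 genes was 0.05, and that of all genes 0.20.

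**Figure D1:**
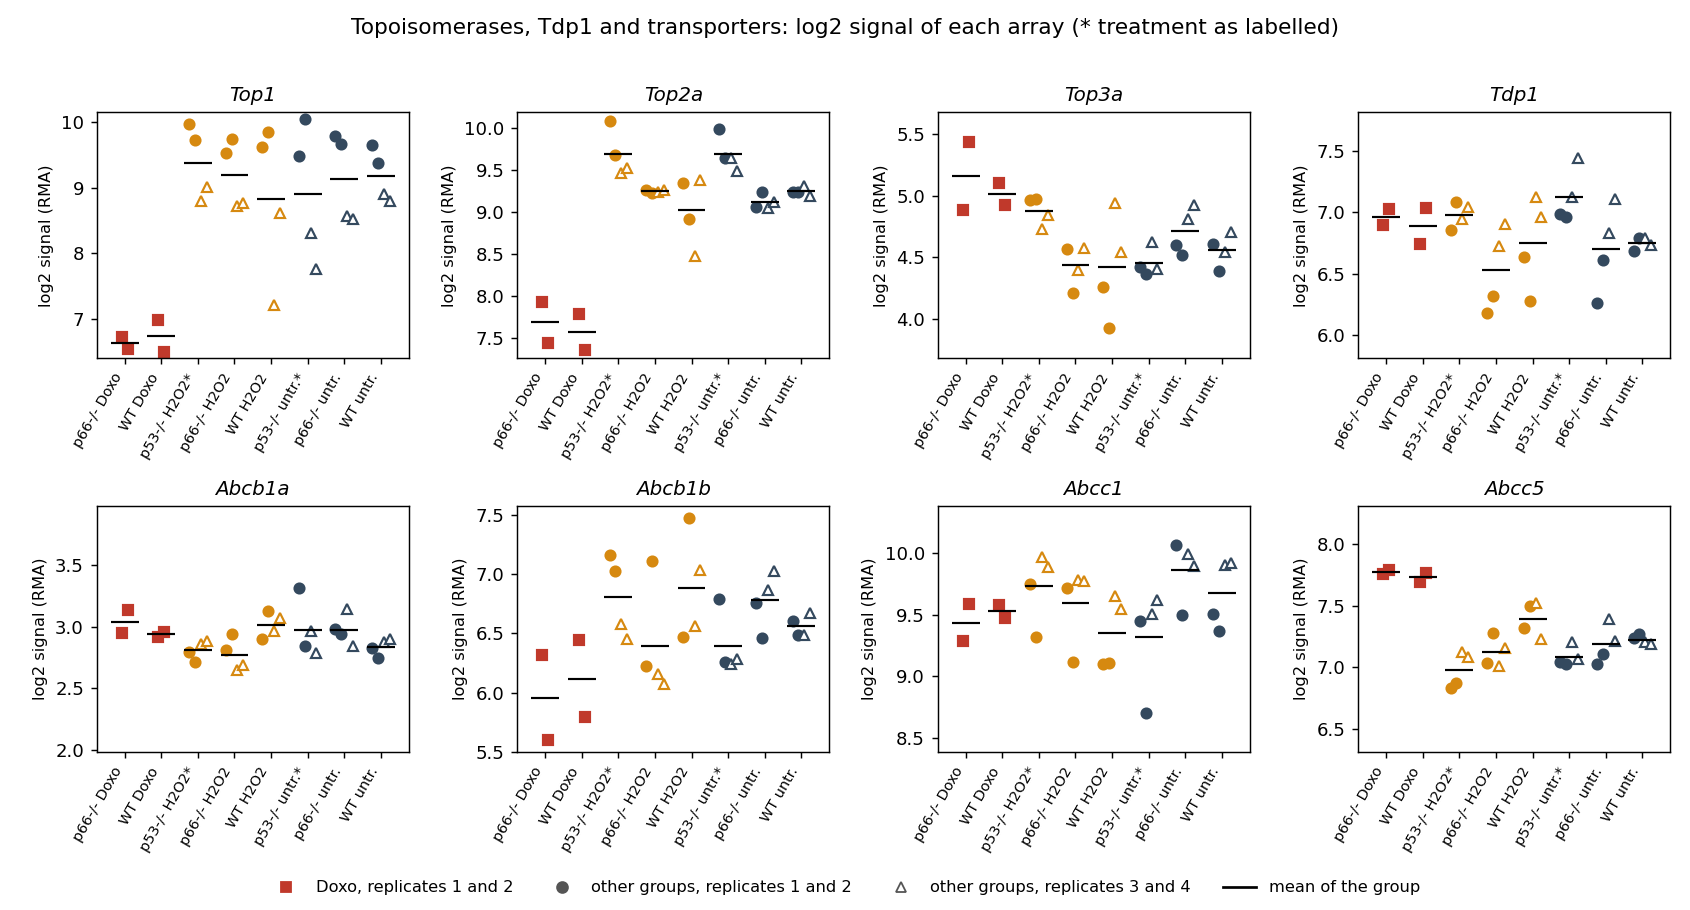
log2 signal (y axis) of each array at the main probe set of 8 genes, by group (x axis). Squares are Doxo arrays, filled circles replicates 1 and 2 and open triangles replicates 3 and 4 of the other groups, and bars are group means. Top1 and Top2a are lowest on all 4 Doxo arrays and Abcc5 is highest on them, and Top1 is split between the array sets.

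Top2a gave the clearest difference between the agents. After Doxo it read 7.93 and 7.45 in p66-/- cells and 7.79 and 7.36 in WT cells. After H2O2 it read 9.25, 9.23, 9.24 and 9.26 in p66-/- cells and 9.35, 8.91, 8.47 and 9.37 in WT cells. Untreated p66-/- cells read 9.05, 9.23, 9.05 and 9.12, and untreated WT cells 9.23, 9.24, 9.31 and 9.19. All 4 Doxo arrays lay below every other array of the series, and the H2O2 and untreated arrays overlapped. The difference was -1.55 ± 0.14 (SE) against untreated cells, 2.92-fold lower (limma adjusted p = 1.56e-08), and -1.503 ± 0.14 against H2O2, 2.83-fold lower (limma adjusted p = 2.77e-08). In a two-sided exact permutation test within genotype both gave p = 0.00444, the smallest that 225 arrangements allow. In a fit to the first array set beside the Doxo arrays the difference from H2O2 was -1.55, and in one to the second -1.45. In RNA of whole cultures, fewer cells that express a gene and less of its RNA per cell cannot be told apart.

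H2O2 itself left no call on any Top2a probe set. At the main one the difference from untreated cells was -0.22 in WT cells, with a 95% interval of -0.56 to 0.12. In p66-/- cells it was 0.13, with an interval of -0.21 to 0.47. In WT cells replicate 3 was the lowest of the H2O2 arrays, at 8.47, and the other 3 ranged from 8.91 to 9.37.

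The p53-/- cells held the highest Top2a levels, which averaged 9.68 ± 0.28 with the H2O2 label and 9.69 ± 0.21 with the untreated label (SD, n = 4 each). Untreated p66-/- cells averaged 9.11 ± 0.09 and untreated WT cells 9.24 ± 0.05. The lowest p53-/- array, at 9.46, was above the highest untreated WT array, at 9.31. By the labels untreated p53-/- cells were 0.45 above WT cells (limma adjusted p = 0.142, exact permutation p = 0.0286, the smallest that 70 arrangements allow), so that the difference did not pass over all probe sets. The 2 p53-/- groups overlapped, and so did those of p66-/- and WT cells.

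The other Top2a probe sets did not all follow. The one with a mean of 5.44 read 4.74 to 5.01 on the Doxo arrays, with which the H2O2 arrays of WT cells, at 4.71 to 5.27, overlapped. Those H2O2 arrays all lay below the untreated WT arrays, at 5.29 to 5.55, with a difference of -0.41 that did not pass. In p66-/- cells the H2O2 arrays, at 5.34 to 5.86, overlapped with the untreated ones, at 5.14 to 5.65. After Doxo this probe set was lower by -0.59 against untreated cells (limma adjusted p = 0.000434) and by -0.42 against H2O2 (0.00646). The third, dim at a mean of 3.30, went the other way, by 0.48 (0.00256) and 0.35 (0.0203). It read 3.43 to 3.93 on the Doxo arrays, 2.79 to 3.58 after H2O2 and 2.98 to 4.05 untreated.

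Top1 showed the widest range of the group means. It read 6.72 and 6.54 after Doxo in p66-/- cells and 6.99 and 6.51 in WT cells. After H2O2 it read 9.52, 9.74, 8.72 and 8.77 in p66-/- cells and 9.62, 9.84, 7.21 and 8.61 in WT cells. In untreated p66-/- cells it was 9.78, 9.67, 8.57 and 8.52, and untreated WT cells 9.65, 9.37, 8.90 and 8.80. The Doxo arrays were again below all others, the nearest being replicate 3 of the WT H2O2 arrays. Doxo lowered Top1 by -2.47 ± 0.44 (SE) against untreated cells, 5.53-fold (limma adjusted p = 7.32e-05), and by -2.32 ± 0.44 against H2O2, 4.98-fold (limma adjusted p = 0.00015).

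The level of Top1 also went with the array set. The 12 arrays of the first set outside Doxo averaged 9.70 ± 0.20, between 9.37 and 10.05, and the 12 of the second set 8.50 ± 0.52, between 7.21 and 9.003, with no overlap (SD). The difference of Doxo from H2O2 was -2.99 in a fit with the first set and -1.64 with the second, and that from untreated cells -2.93 and -2.01. The part of the array set in the fall of Top1 was not tested further. H2O2 gave no call on Top1, with differences from untreated cells of -0.36 in WT cells (95% interval -1.40 to 0.69) and 0.05 in p66-/- cells (-0.99 to 1.10).

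Top3a rose. It read 4.89 and 5.43 after Doxo in p66-/- cells and 5.10 and 4.93 in WT cells, against 4.21 to 4.58 and 3.92 to 4.94 after H2O2. Untreated p66-/- cells read 4.51 to 4.92 and untreated WT cells 4.38 to 4.70. The Doxo arrays of p66-/- cells were above their H2O2 arrays and overlapped with 1 untreated array, and those of WT cells were above their untreated arrays and overlapped with 1 H2O2 array. The rise was 0.45 ± 0.14 (SE) against untreated cells (limma adjusted p = 0.00767, exact permutation p = 0.00889) and 0.66 ± 0.14 against H2O2 (0.00039, exact permutation p = 0.0133), or 1.37-fold and 1.58-fold. Without replicate 2 of the p66-/- Doxo arrays the rise over untreated cells was 0.32 and did not pass (limma adjusted p = 0.0862). On p53-/- arrays Top3a was 0.42 higher where labelled H2O2 than where labelled untreated (exact permutation p = 0.0286, limma adjusted p = 0.15), and the exchange of these labels turns its sign.

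Tdp1 passed in no comparison. It averaged 6.96 ± 0.09 in p66-/- and 6.88 ± 0.21 in WT cells after Doxo (SD, n = 2 each), against 6.53 ± 0.34 and 6.75 ± 0.37 after H2O2 and 6.70 ± 0.36 and 6.75 ± 0.05 untreated (n = 4 each). Doxo was 0.28 above H2O2, with a 95% interval of -0.04 to 0.60, and 0.20 above untreated cells, with an interval of -0.13 to 0.52. Its highest array, at 7.44, was of p53-/- cells labelled untreated.

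**Figure D2:**
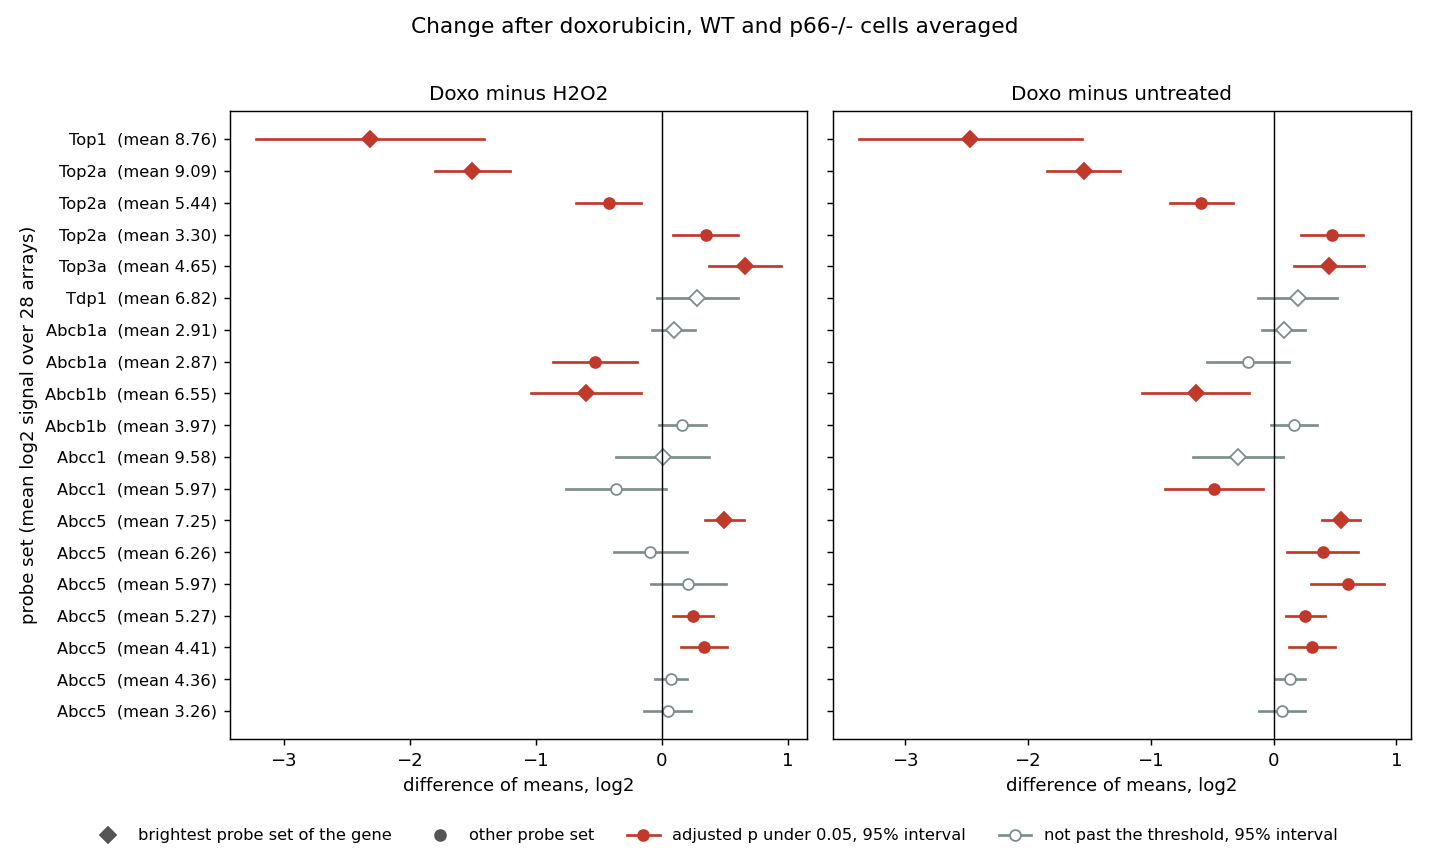
Difference of the means (log2, x axis) between Doxo and H2O2 (left) and between Doxo and untreated cells (right) at the 19 probe sets (y axis, with their mean signal), WT and p66-/- averaged. Diamonds are main probe sets, lines 95% intervals and red marks an adjusted p under 0.05; Top1 and the main Top2a probe set lie farthest below 0, and no rise exceeds 0.66.

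Of the pumps, Abcb1b and Abcc5 passed and went opposite ways. Abcb1b read 6.32 and 5.60 after Doxo in p66-/- cells and 6.44 and 5.79 in WT cells. After H2O2 it read 6.23, 7.11, 6.16 and 6.07 in p66-/- cells and 6.47, 7.47, 6.57 and 7.03 in WT cells. Without treatment, p66-/- cells gave 6.76, 6.46, 6.86 and 7.03, and untreated WT cells 6.61, 6.49, 6.48 and 6.67. In both genotypes replicate 2 was the lower Doxo array, and replicate 1 of p66-/- cells lay among the H2O2 arrays. Abcb1b was lower by -0.63 ± 0.21 (SE) against untreated cells, 1.55-fold (limma adjusted p = 0.0139, exact permutation p = 0.00444), and by -0.60 ± 0.21 against H2O2, 1.52-fold (0.0188, exact permutation p = 0.0711).

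The calls on Abcb1b rest on few arrays. Without replicate 2 of the p66-/- Doxo arrays the differences from untreated and H2O2 cells were -0.45 and -0.42 (limma adjusted p = 0.117 and 0.144), and without replicate 2 of the WT Doxo arrays -0.47 and -0.44 (0.109 and 0.134). After a further quantile normalization they were -0.35 and -0.35 (0.151 and 0.154). The change after H2O2 was 0.32 in WT cells, with a 95% interval of -0.18 to 0.82, and -0.39 in p66-/- cells, with an interval of -0.89 to 0.12, and neither passed. The dimmer Abcb1b probe set, with a mean of 3.97, did not pass, at 0.17 against untreated cells and 0.16 against H2O2.

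Abcc5 read 7.76 and 7.79 after Doxo in p66-/- cells and 7.69 and 7.76 in WT cells. After H2O2 it read 7.04, 7.28, 7.01 and 7.16 in p66-/- cells and 7.32, 7.49, 7.52 and 7.23 in WT cells. The untreated values were 7.02, 7.11, 7.39 and 7.21 in p66-/- cells and 7.23, 7.27, 7.20 and 7.19 in WT cells. The 4 Doxo arrays were above all other arrays of the series. The rise was small but steady among the arrays, at 0.55 ± 0.07 (SE) against untreated cells, 1.46-fold (limma adjusted p = 3.26e-06), and 0.50 ± 0.07 against H2O2, 1.41-fold (limma adjusted p = 1.23e-05). Both exact permutation tests gave p = 0.00444, the smallest possible. With the first and the second array set the difference from H2O2 was 0.47 and 0.52. The rise is less than 1.5-fold, the threshold of the study.

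The 7 Abcc5 probe sets differed in their response to H2O2. The main one was 0.17 higher in H2O2-treated than in untreated WT cells (95% interval -0.01 to 0.35) and did not pass. The probe sets with means of 6.26 and 5.97, which were designed on the same sequence as the main one, were higher by 0.75 ± 0.16 and 0.68 ± 0.17 (SE; limma adjusted p = 0.00715 and 0.0199). These were 2 of the 19 probe sets, against 3.66% of all probe sets called in WT cells after H2O2. The first of them read 6.18, 7.34, 6.86 and 6.75 after H2O2 and 5.89, 5.92, 6.14 and 6.17 in untreated WT cells, so that every H2O2 array was above every untreated one. At these 2 probe sets H2O2 and Doxo did not differ by a call, with differences of -0.09 (95% interval -0.38 to 0.20) and 0.21 (-0.09 to 0.51) for Doxo minus H2O2, WT and p66-/- averaged. In p66-/- cells the same probe sets moved by 0.23 and 0.11 and did not pass, and the differences between the genotypes, -0.53 and -0.57, did not pass either (limma adjusted p = 0.9999 for both).

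These H2O2 calls were lost in a fit to the WT groups alone (adjusted p = 0.178 and 0.19) and in the first array set (0.305 and 0.479). The second also lost its call in the second array set (0.0524), without replicate 2 or 3 of the WT H2O2 arrays (0.0873 and 0.0672) and without replicate 1 of the untreated WT arrays (0.0743). After Doxo, 5 of the 7 probe sets rose against untreated cells, by 0.26 to 0.60, and 3 of them against H2O2, by 0.25 to 0.50. The Abcc5 probe sets with means of 5.97 and 5.27 have a name ending that marks probes which may bind other transcripts.

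**Figure D3:**
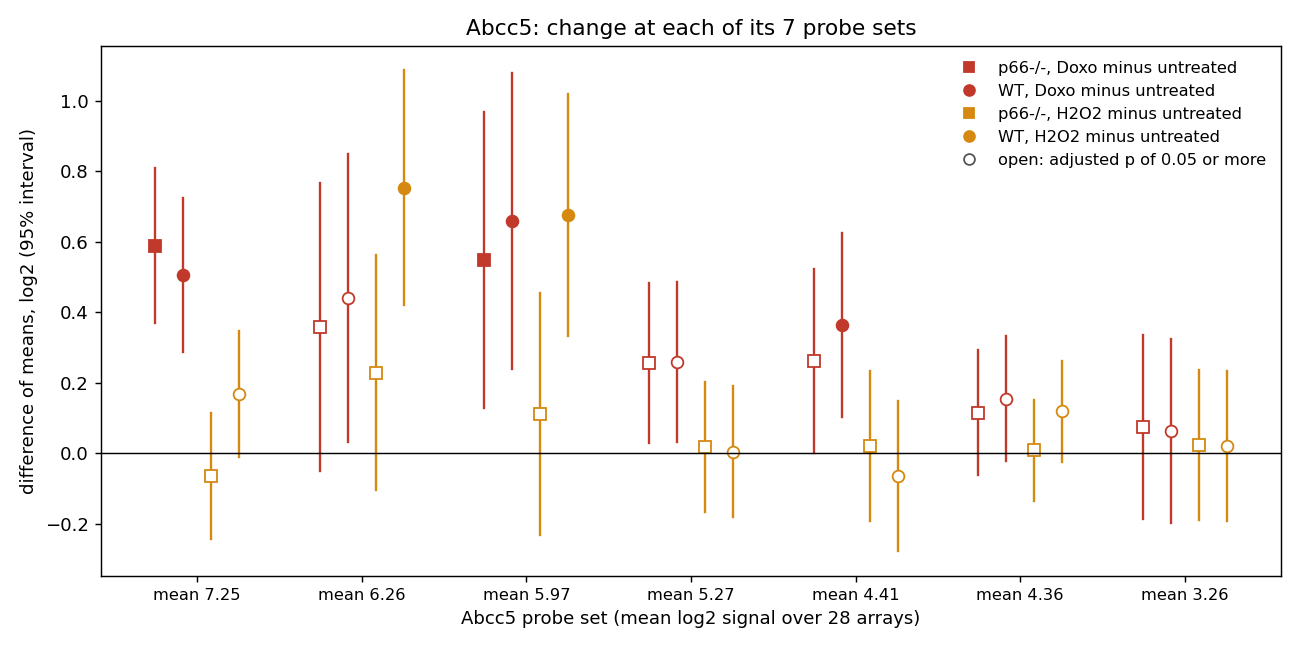
Difference from untreated cells (log2, y axis, with 95% intervals) at the 7 Abcc5 probe sets (x axis, by their mean signal) after Doxo (red) and H2O2 (orange) in p66-/- (squares) and WT cells (circles). Filled symbols have an adjusted p under 0.05; after H2O2 only the probe sets with means of 6.26 and 5.97 passed, in WT cells.

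Abcc1 did not pass at its main probe set. It averaged 9.44 ± 0.21 in p66-/- and 9.53 ± 0.08 in WT cells after Doxo (SD, n = 2 each), against 9.60 ± 0.32 and 9.35 ± 0.29 after H2O2 and 9.86 ± 0.25 and 9.68 ± 0.28 untreated (n = 4 each). Doxo differed from H2O2 by 0.01, with a 95% interval of -0.36 to 0.37, and from untreated cells by -0.29, with an interval of -0.65 to 0.08. The other probe set, with a mean of 5.97 and a name ending that marks probes shared by several transcripts, was lower than in untreated cells by -0.49 (limma adjusted p = 0.034) and did not pass against H2O2, at -0.36 (0.108).

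Abcb1a was dim. Its main probe set had a mean of 2.91, at the 9.97th percentile of all probe sets, and lay between 2.65 and 3.32 on every array. Doxo differed from H2O2 by 0.09, with a 95% interval of -0.08 to 0.27, and from untreated cells by 0.08, with an interval of -0.09 to 0.25. The second probe set, with a mean of 2.87, read 2.51 to 2.63 on the Doxo arrays and 2.74 to 3.70 after H2O2, and was lower after Doxo than after H2O2 by -0.53 (limma adjusted p = 0.00822) but not than untreated, at -0.21 (0.266).

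Within each genotype the calls were fewer. In WT cells Doxo changed 7 of the 19 probe sets against untreated cells (35% of all) and 5 against H2O2 (29.8% of all). In p66-/- cells it changed 6 against untreated cells (40.7% of all) and 5 against H2O2 (45.7% of all). Top1, Top2a and Abcc5 passed in both genotypes, against untreated as against H2O2-treated cells. Without replicate 2 of the WT Doxo arrays the WT counts were 3 against untreated cells and 1 against H2O2, and Top1 did not pass there, at -2.19 and -1.83 (limma adjusted p = 0.0696 and 0.144). Against H2O2 in WT cells Top2a, at -1.45, kept its call in 6 of 6 omissions, and the calls of the other genes were weaker. Abcc5, at 0.34, lost its call in 3 of 6 omissions, without replicate 1 or 2 of the Doxo arrays or replicate 4 of the H2O2 arrays (limma adjusted p = 0.0594, 0.16 and 0.058). Top3a, at 0.60, lost it in 4 of 6, without replicate 1 or 2 of the Doxo arrays or of the H2O2 arrays (0.154, 0.0805, 0.059 and 0.0794). In a fit to these WT groups alone Top1, Top3a and Abcc5 did not pass (0.115, 0.187 and 0.116). In p66-/- cells Abcb1b, at -0.82 against untreated cells, lost its call in 4 of 6 omissions, with an adjusted p of up to 0.386 without replicate 2 of the Doxo arrays, and Top3a lost its call against H2O2 without that array, at 0.45 (0.163). The Doxo response of p66-/- cells was compared with that of WT cells by an interaction term. It differed at no member, the differences at the 19 probe sets lying between -0.37 and 0.24, and 0% of all probe sets passed (1077 at an unadjusted p under 0.05, and 0 of these members). For the H2O2 response 0.00222% of all passed and no member, with differences of -0.71 to 0.49. At an unadjusted p under 0.05 there were 4 of the 19 member probe sets and 1375 of all 45037.

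After H2O2 no member passed in p66-/- cells (0.0178% of all) or, by the labels, in p53-/- cells (4.56% of all). At an unadjusted p under 0.05 there were 1 and 5 of the 19 member probe sets, and 1988 and 7732 of all 45037. By the adjusted p 1 member passed in p53-/- cells with the replicate number as a block and 1 without replicate 2 of the arrays labelled untreated. Untreated p53-/- cells differed from WT cells by a call at no member (4.75% of all), with 2 at an unadjusted p under 0.05. These were Top2a and Tdp1, at 0.45 and 0.38 (limma adjusted p = 0.142 and 0.291). Untreated p66-/- cells differed from WT cells at no member and at 0% of all probe sets, with none of the members and 593 of all at an unadjusted p under 0.05.

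The genes with the pattern most like those of the 3 members of widest range were looked for among 10971 genes with main probe sets of more than median level, by Pearson's r over the 28 arrays. For Top1 they were Usp34, a ubiquitin protease, Rsbn1 and Atad2b, with r of 0.99, 0.99 and 0.99, and 0.98, 0.97 and 0.97 over the 24 arrays without Doxo. As many as 900 genes had an r above 0.9 with Top1. For Top2a they were Ptcd3, a protein of mitochondrial ribosomes, Dbf4, the activator of the replication kinase Cdc7, and Usp1, a ubiquitin protease of DNA repair. Their r was 0.97, 0.97 and 0.96, and 0.84, 0.86 and 0.82 without Doxo, and 227 genes exceeded 0.9. For Abcb1b they were Gja1, the gap junction protein connexin, Slc23a2, a vitamin C carrier, and Fam122b, with r of 0.72, 0.70 and 0.70, and 0.54, 0.52 and 0.51 without Doxo. The arrays share their sets and the Doxo exposure, so that these values describe the arrays and are no test.

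Other topoisomerases and the proteins that clear trapped ones were taken from a list of 20 genes, of which 17 were measured. Of all 17097 genes 3409 fell and 7964 rose after Doxo against untreated cells, with a median of 0.20. Of the list 7 fell and 4 rose, with a median of -0.21. Those with the lowest adjusted p were Nbn, of the complex that senses breaks, at -2.56 ± 0.22 (SE), Topbp1, an activator of the checkpoint kinase ATR, at -1.78 ± 0.16, Tdp2, which removes topoisomerase 2 remnants from DNA ends, at -1.64 ± 0.19, and Rmi1, the partner of Top3a and Blm, at -1.28 ± 0.17. The 4 that rose were Xrcc1, the scaffold of break repair, at 1.31 ± 0.23, Mus81, a nuclease of branched DNA, at 0.66 ± 0.26, Top3b at 0.65 ± 0.09 and Top1mt, the mitochondrial topoisomerase, at 0.58 ± 0.20. Against H2O2 7 fell and 5 rose, where 3400 of all genes fell and 7876 rose. Top3a rose where its partners Rmi1 and Blm (-1.13 ± 0.17) fell.

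Of 21 further transporters of subfamilies B, C and G and the vault protein, 18 were measured. After Doxo 12 rose and 1 fell, against untreated cells as against H2O2, with medians of 0.29 and 0.33. Of all 17097 genes 7964 rose and 3409 fell against untreated cells, and 7876 rose and 3400 fell against H2O2. Abcb6, a porphyrin transporter, rose by 1.32 ± 0.20 (SE) against untreated cells, Mvp, the major vault protein, by 0.88 ± 0.15, Abcc3, an exporter of organic anions, by 0.55 ± 0.13 and Abcc8, the sulfonylurea receptor, by 0.54 ± 0.12. The one that fell was Abcg2, an exporter that also takes anthracyclines, at -0.58 ± 0.14 and -0.61 ± 0.14 against H2O2. The medians lie close to the 0.20 of all genes, and Abcc8 had a mean of only 3.57.

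Of 14 enzymes that can reduce doxorubicin, 9 were measured. After Doxo 8 rose and none fell against untreated cells, with a median of 0.66, and 7 rose against H2O2, with a median of 0.67. The median of all genes was 0.20 in both comparisons, of which 7964 of 17097 rose against untreated cells and 7876 against H2O2. The carbonyl reductases, which turn doxorubicin into its alcohol, gave 1.80 ± 0.23 (SE) for Cbr3 and 1.03 ± 0.15 for Cbr1. The respiratory complex subunits Ndufs7 and Ndufs3 gave 0.91 ± 0.18 and 0.66 ± 0.12. Nos2 and Nos3 of this list were dim, with means of only 3.62 and 3.89 in untreated WT cells.

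S phase and mitosis genes served as a gauge of cycling cells, and 21 of 22 were measured. Of all 17097 genes 3409 fell and 7964 rose after Doxo against untreated cells, with a median of 0.20. Of the list 5 fell and 4 rose, with a median of 0.01, so that the fall of Top2a was not shared by the whole list. Those that fell included Bub1, a kinase of the spindle checkpoint, at -3.35 ± 0.32 (SE), Mki67, a marker of dividing cells, at -3.13 ± 0.42, the spindle motor Kif11 at -1.81 ± 0.26 and the spindle factor Tpx2 at -0.84 ± 0.17. Those that rose were Mcm5 at 1.03 ± 0.22 and Mcm2 at 0.65 ± 0.26, both of the replicative helicase, Cdc20, an activator of the ligase that ends mitosis, at 0.58 ± 0.25, and Tyms, which makes thymidylate, at 0.55 ± 0.22. Against H2O2 5 fell and 6 rose, with a median of 0.37, where 3400 of all genes fell and 7876 rose, with a median of 0.20. None of the genes of these 4 lists passed for H2O2 against untreated cells, in any of the 3 genotypes. The median change of the S phase and mitosis list after H2O2 was still -0.42 in WT cells and -0.18 in p66-/- cells. By the labels it was 0.24 in p53-/- cells. The medians of all genes were 0.02, -0.02 and -0.05 in the same order.

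The stress genes gave 2 that rose and 3 that fell among 7 after Doxo against untreated cells, where 7964 of all 17097 genes rose and 3409 fell. Cdkn1a, the p53 target that halts the cycle, rose by 1.40 ± 0.19 (SE) and Atf3 by 0.91 ± 0.23, whereas Adm fell by 2.76 ± 0.31, Ccng1 by 1.12 ± 0.28 and Id1 by 1.18 ± 0.38. Cdkn1a averaged 6.64 ± 0.26 on p53-/- arrays with the H2O2 label and 7.65 ± 0.42 with the untreated one (SD, n = 4 each), against 11.8 ± 0.39 and 10.5 ± 0.19 in WT cells.

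**Figure D4:**
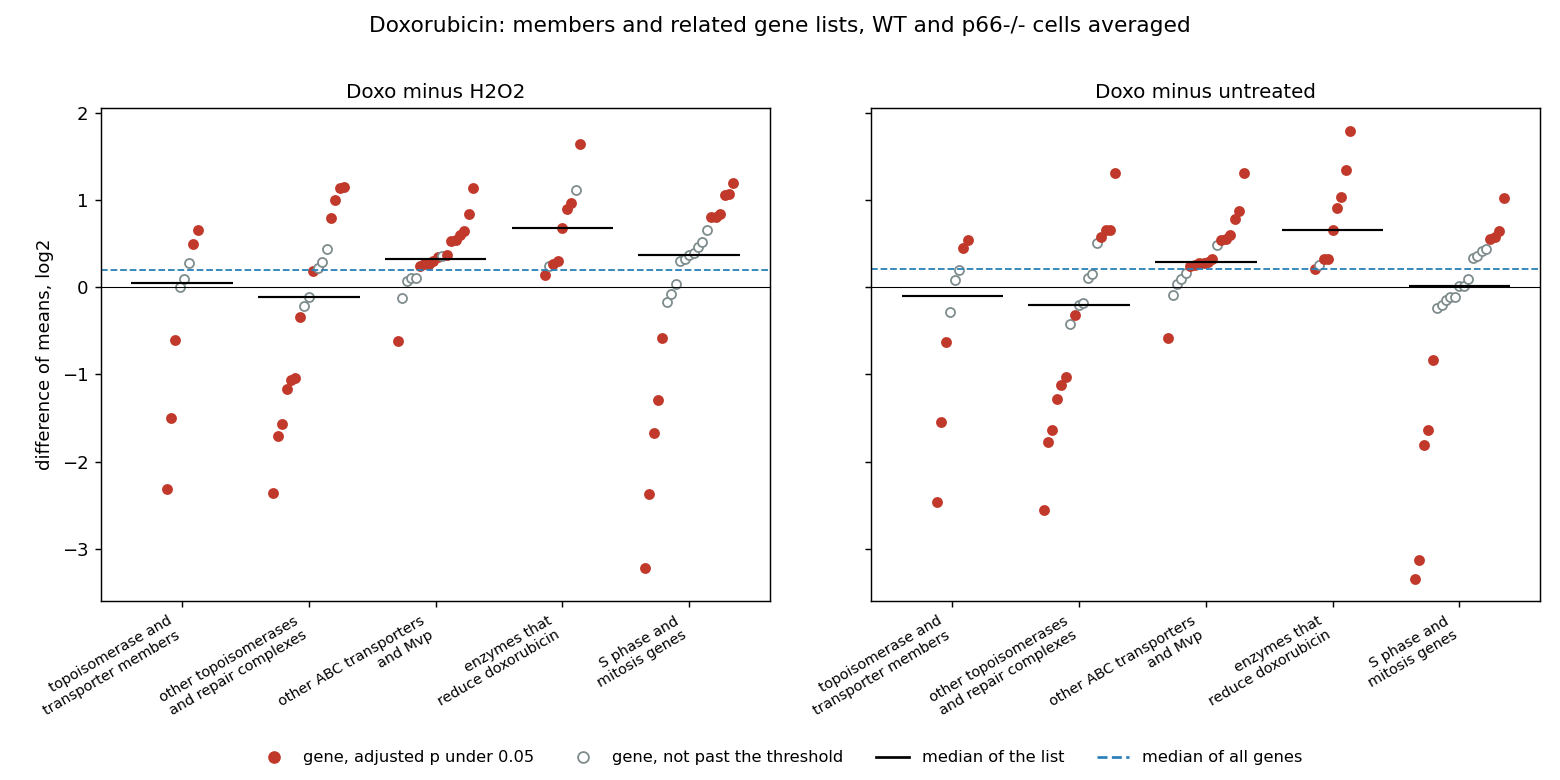
Difference of the means (log2, y axis) for Doxo against H2O2 (left) and against untreated cells (right) at the main probe set of each gene (points), for the members and 4 lists (x axis). Black bars are list medians and the dashed line is the median of all 17097 genes; transporters and reducing enzymes lie mostly above 0, and the other lists hold genes on both sides.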

How the data were processed

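Total RNA of the MEFs was hybridized to Affymetrix MG-430 PM array strips. The submitters' processing notes name RMA and Partek 6.5, by which the authors made the deposited log2 values, which ran from 1.95 to 13.5, with array medians of 4.35 to 4.46. They were used without any further step. Arrays have no sequencing depth, and their number limits the precision. Control probe sets (104) were set aside, which left 45037. The platform annotation pairs 28898 of these with a single symbol, for 17097 genes, and 551 with several, and 15588 carry none.

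The mean of each of the 8 groups was estimated over all 28 arrays with limma 3.58.1 in R 4.3.3 (20 residual degrees of freedom), and p-values were adjusted over all probe sets by Benjamini and Hochberg. The fit was run on simulated arrays with independent noise and no array sets, which cannot show how such sets bear on the calls. There it found 58% of 50 changes of 0.585 and 88% of 50 changes of 1, with 3 false calls among 167. At the main probe sets 56 two-sided exact permutation tests were made, whose p-values are not adjusted for their number.

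The members and lists were chosen with earlier results of these data known. Named genes are all members at the probe set with the highest mean, the 4 genes per list whose adjusted p was lowest for Doxo against untreated cells, and each gene called against the majority of its list. Blm, Id1, Mdm2, Nos2 and Nos3 were named after their values were seen. H2O2 and untreated arrays of the same replicate number deviated together from their group means (r of 0.51 to 0.75), which was taken as pairing, although 2 of the 4 p66-/- H2O2 arrays, both of the second array set, correlated better with another number (0.70 against 0.69, and 0.67 against 0.66). There the number is hardly told from the set. The main fit holds no term for the replicate number, so that its intervals and calls for H2O2 are unpaired. The pairing enters only the alternative with the replicate block. The Doxo arrays were not paired (-0.08 to 0.05). The alternatives were leaving out the dimmest 40% of probe sets, a further quantile normalization, the replicate number as a block, fits to the compared groups alone or to each array set, the thresholds of the study (unadjusted p under 0.05 and 1.5-fold), exchanged p53-/- labels and leaving out each array.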

Additional observations from a re-analysis of the deposited data

Results flagged for a closer look

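In 48 groups of 4 arrays at the main probe sets, 3 held an array far from the other 3, by Dixon's test of the gap over the range, which chance alone passes in about 5% of groups. Abcb1b read 7.11 in replicate 2 of the p66-/- H2O2 arrays, where the others read 6.07 to 6.23. Abcc1 read 9.12 in the same array, where the others read 9.72 to 9.79. Abcb1b read 6.79 in replicate 1 of the p53-/- arrays labelled untreated, where the others read 6.24 to 6.28.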

How the results depend on the processing

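No member that passed changed its sign at its main probe set under any alternative. With WT and p66-/- averaged the falls of Top1 and Top2a passed under every one. Abcc5, and Top3a against untreated cells, missed only the 1.5-fold threshold of the study and, for Top3a, the omission given beside it. Abcb1b also lost its call against untreated cells with the first array set, at -0.54 (limma adjusted p = 0.114), and against H2O2 with the second, at -0.42 (0.0577), and in the compared groups alone (0.0745). At the thresholds of the study 5 member probe sets were called for Doxo against untreated cells, 1 higher and 4 lower, and 4 against H2O2, 1 higher and 3 lower. Over all probe sets these were 11055, 4653 higher and 6402 lower, and 11152, 4680 higher and 6472 lower, so that lower calls outnumbered higher ones, the other way round than by the adjusted p. In WT cells it was 4 members of 10125 against untreated cells, and in p66-/- cells 11137 probe sets passed against untreated cells and 12152 against H2O2. The same thresholds gave 409 probe sets for H2O2 in p66-/- cells, 59 and 469 for the difference of the Doxo and H2O2 responses between p66-/- and WT cells, and 58 between untreated p66-/- and WT cells.

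For Doxo, whose arrays the numbers do not pair, the replicate block sets the Doxo arrays against the first array set. It gave 10 members of 25023 probe sets against untreated cells and 10 of 26671 against H2O2 in p66-/- cells, and 8 of 21366 against H2O2 in WT cells, so that calls rose over all probe sets as well. For H2O2, with its pairing of the numbers, it gave 3131 probe sets in WT, 46 in p66-/- and 4129 in p53-/- cells, with 1 member in the last, and 4302 for untreated p53-/- against WT cells. In the main fit, which is unpaired, these were 1650, 8, 2054 and 2141 probe sets. The block ended no call on a member at its main probe set. Fits to the compared groups alone gave 11 members for Doxo against untreated WT cells, where the main fit gave 7 and 35% of all probe sets. The share of all probe sets for these 11 is not given here, so that they cannot be set against it. Against H2O2 the count in WT cells was 1 of 3968. For H2O2 it was 0 of 789 in WT cells, 0 probe sets in p66-/- and 1 member of 1176 in p53-/- cells, and 1197 for untreated p53-/- against WT cells.

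With the first array set alone H2O2 called 0 members of 18 probe sets in WT cells, 0 probe sets in p66-/- and 43 in p53-/- cells, its response differed between p66-/- and WT cells at 0, and untreated p53-/- cells differed from WT cells at 553. With the second these were 1 of 2847, 80, 3597, 264 and 3664, with 1 member in the last, and 8 probe sets differed between untreated p66-/- and WT cells. A further quantile normalization gave 8 members for Doxo against H2O2 in p66-/- cells, where the main fit gave 5 and 45.7% of all probe sets. The share of all probe sets after this normalization is not given here. Without the dimmest 40% of probe sets 14 passed for H2O2 in p66-/- cells and 0 for the difference of the H2O2 response. With the p53-/- labels exchanged 38 differed between untreated p53-/- and WT cells. The causes were not tested.

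Leaving out each array in turn gave 9 to 13 members (21167 to 26386 probe sets) for Doxo against untreated cells and 8 to 10 (21097 to 27193) against H2O2. In WT cells it was 3 to 7 (7121 to 14529) and 1 to 8 (5357 to 16577), lowest without replicate 2 of the Doxo arrays, and 8 without replicate 3 of the H2O2 arrays. In p66-/- cells it was 4 to 7 (10833 to 18829) and 5 to 7 (12486 to 20577). H2O2 gave 1 to 2 members (1082 to 1590) in WT, 0 (1 to 94) in p66-/- and 0 to 1 (1281 to 2324) in p53-/- cells. The Doxo and H2O2 responses differed between p66-/- and WT cells at 0 to 2 and 1 to 18 probe sets, and untreated p53-/- from WT cells at 1356 to 2148. The number of Doxo arrays, 4 in all, and the dim signal of Abcb1a limit what could be seen.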
